A study of Solanum lycopersicum with 12 samples.

Results

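The genes described here are tomato genes whose transcripts rose over mock after abscisic acid (ABA). After the synthetic compound iSB09 these genes had a mean log2 response at most 0.25 times as large. They were chosen from their measured values. Counts were scaled to library totals (CPM) and averaged over the 3 libraries of each treatment. A gene was called ABA-raised when its mean was at least 1 CPM in mock, its log2 ratio of ABA to mock was at least 1, and its lowest ABA library lay above its highest mock library. The log2 ratio of ABA to mock is written a, and that of iSB09 to mock is written s, each with 0.1 CPM added to the means. Of 34075 gene IDs in the table, 19562 had at least 1 CPM in mock, 606 of these had a of at least 1, and 599 were ABA-raised. The members are the 64 ABA-raised genes with s/a of 0.25 or less, 10.7% of the 599.

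Whole wild-type (WT) tomato seedlings, Solanum lycopersicum, spent 8 days in liquid Murashige and Skoog medium at 22 °C with 16 h of light, starting 3 days after germination. They were then given fresh medium for 3 h, with 0.1% DMSO in the mock group, 10 µM ABA in the second group and 20 µM iSB09 in the third. DMSO is recorded for the mock group alone, so a difference in solvent cannot be told apart from treatment, and the dose of iSB09 was not that of ABA. Each group had 3 libraries, described as independent biological replicates. A further group of 3 samples, treated with 10 µM iCB, is not analysed here. The series asks whether these compounds elicit the gene expression that ABA elicits.

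ABA is the plant hormone of drought and seed dormancy. It binds soluble receptors of the PYR/PYL/RCAR family, which then inhibit clade A PP2C phosphatases and so release SnRK2 kinases. The kinases phosphorylate bZIP transcription factors of the AREB/ABF group, which bind ABA-responsive elements in promoters of genes for protective proteins, phosphatases and hormone-degrading enzymes. A synthetic receptor agonist acts on the same receptors, and family members can differ in their affinity for one.

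The table and the reference used here do not pair the IDs with gene names, since no RefSeq entry carries them (0 matched). The members are therefore given by ID, without a gene name or a role, and no sequence is shown. CPM is not scaled to transcript length, so levels are compared between treatments and not between genes.

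The 9 libraries held 21863058 to 22098966 counts each, and 1 count corresponds to 0.046 CPM. On the first principal component of log2 CPM, mock libraries stood at -61.3 to -48.7, iSB09 at -6 to 8.5 and ABA at 50.7 to 55.7. On the second, iSB09 replicate 2 stood at 45.5, mock replicate 1 at 20.3 and mock replicate 3 at -31.2. The other 6 libraries were between -9.8 and -4.3 on the second. The summed level of 18 photosynthesis IDs, written down from general knowledge as markers of green tissue, was 35200 to 46400 CPM in mock, 36400 to 45500 CPM in ABA and 36100 to 46200 CPM in iSB09. These ranges overlapped, and the green tissue of a whole seedling was represented in every library. Fewer cells of a type and less RNA per cell cannot be told apart in whole seedlings.

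Among the members, a ran from 1.01 to 3.34 with a median of 1.29, a 2.44-fold increase. The values of s ran from -0.81 to 0.61 with a median of 0.21, a 1.15-fold difference. Over all 599 ABA-raised genes the median of a was 1.60 and that of s was 0.79, and the median of s/a was 0.49. The 489 genes with s/a above 0.25 and under 0.75 had a median a of 1.63 and a median s of 0.81, and the 46 genes with s/a of 0.75 or more had 1.78 and 1.66. The members thus form the lower edge of a continuous distribution, without a gap at the limit. Just inside it were Solyc01g094723.1 and Solyc06g063300.4, with s/a of 0.25 (rounded) and 0.249, and just outside were Solyc06g062460.3 and Solyc05g046290.3, with 0.251 and 0.253.

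**Figure D1:**
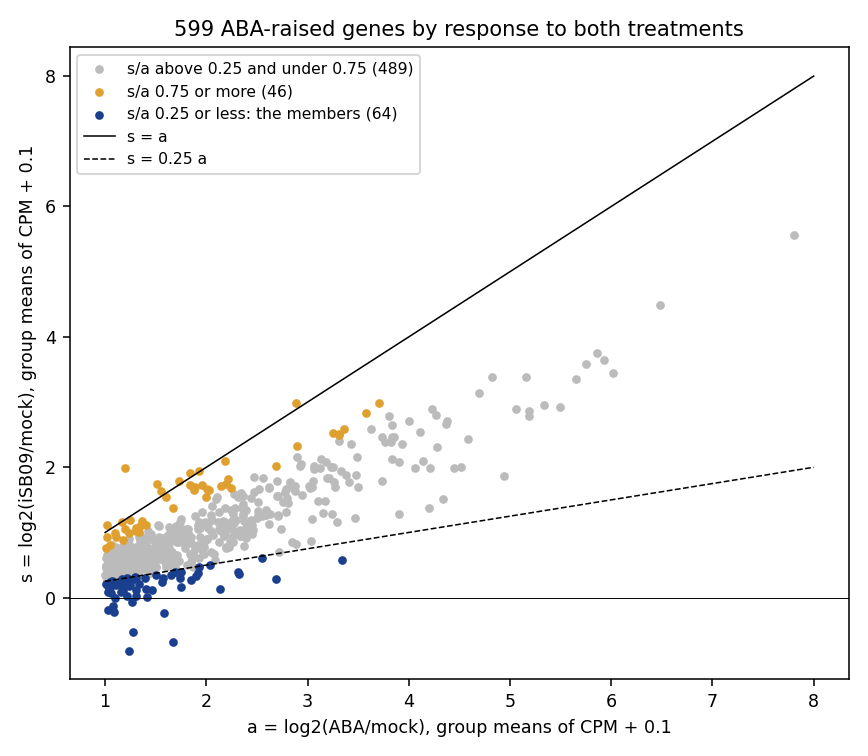
Each point is 1 of 599 ABA-raised genes, with a, the log2 ratio of ABA to mock, on the horizontal axis and s, the log2 ratio of iSB09 to mock, on the vertical axis. The 64 members in blue lie under the dashed line s = 0.25 a, mostly at small a, and 8 of them lie below 0.

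Most members had a small response to ABA. In 42 of 64 a was under 1.5, and in 7 it was 2 or more. Members made up 15.8% of the 266 ABA-raised genes with a from 1 to 1.5 and 11.7% of the 128 with a from 1.5 to 2. Their share was 4.88% of the 123 genes with a from 2 to 3, and 1.22%, 1 gene, of the 82 with a of 3 or more. The median s/a of all ABA-raised genes rose over these 4 classes, from 0.44 through 0.49 and 0.52 to 0.58. Genes with s/a of 0.75 or more had no such order, with 6.77%, 9.38%, 8.13% and 7.32% of the 4 classes. Because s/a divides by a, the same error in s moves it more where a is small.

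The members also rested on fewer reads. The median count per mock library was 84 among members, 149 among genes with s/a between 0.25 and 0.75 and 118 among those with 0.75 or more. Mock means under 2 CPM were found for 23 of 64 members, 35.9%, against 18.9% of all ABA-raised genes. The median standard deviation within a group, on the log2 scale, was 0.29 for members, 0.24 for the intermediate genes and 0.30 for those with s/a of 0.75 or more. The part of read depth in the choice of members was not tested.

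**Figure D2:**
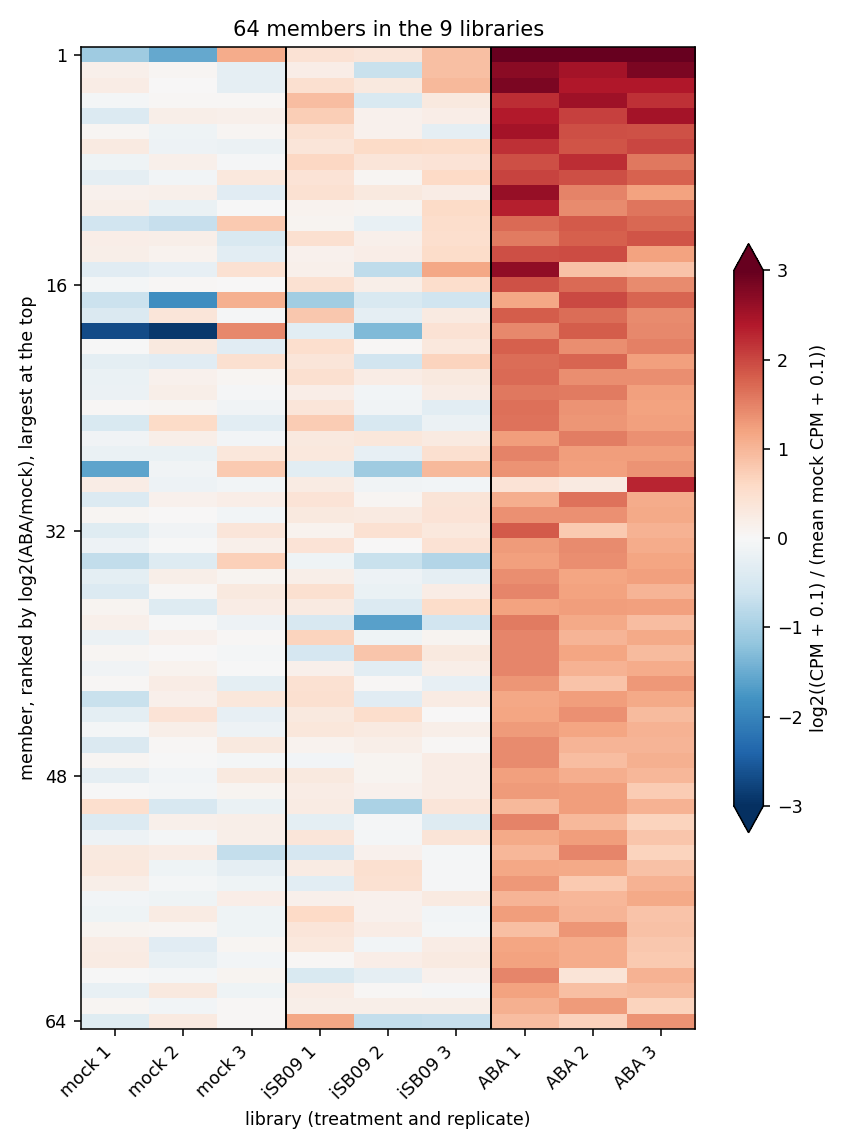
Rows are the 64 members ranked by the log2 ratio of ABA to mock, columns are the 9 libraries, and colour is the log2 ratio of a library's CPM to the mean of mock, with 0.1 CPM added to both. The 3 ABA columns are red almost throughout, while mock and iSB09 columns are pale, apart from rows where mock replicate 3 is red and mock replicates 1 and 2 are blue.

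The 4 members with the largest a were Solyc06g072130.4, Solyc03g097570.3, Solyc10g005040.4 and Solyc07g062530.3. Solyc06g072130.4 had 0.547, 0.365 and 2.85 CPM in mock replicates 1 to 3, 12.5, 13.0 and 15.3 CPM in ABA, and 1.73, 1.64 and 2.41 CPM in iSB09. Every ABA library stood far above the other groups, while all 3 iSB09 libraries fell inside the range of mock, whose upper end was replicate 3 alone. Its fitted log2 fold change was 3.48 ± 0.49 (SE, n = 3) after ABA and 0.63 ± 0.53 after iSB09. The iSB09 value was 2.04 when mock replicate 3 was left out, so its small response rests on that library. Without that library the mock mean was 0.456 CPM, under the limit of 1 CPM in the rule.

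Solyc03g097570.3 had 1.37, 1.28 and 0.996 CPM in mock, 8.53, 7.35 and 9.24 CPM in ABA, and 1.41, 0.73 and 2.37 CPM in iSB09. The iSB09 libraries lay on both sides of mock, and the lowest ABA library was above all of them. The fitted log2 fold change was 2.81 ± 0.31 after ABA and 0.30 ± 0.34 after iSB09, with a 95% interval of -0.45 to 1.05. Solyc07g062530.3 was similar, with 1.23, 1.32 and 1.31 CPM in mock, 6.34, 7.94 and 6.27 CPM in ABA, and 2.55, 0.913 and 1.59 CPM in iSB09. Its iSB09 libraries again fell on both sides of mock, and the fitted log2 fold changes were 2.44 ± 0.28 and 0.38 ± 0.31.

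Solyc10g005040.4 had 7.88, 6.85 and 5.61 CPM in mock, 48.5, 36.0 and 36.0 CPM in ABA, and 9.51, 8.35 and 13.4 CPM in iSB09. Here every iSB09 library was above every mock library, and s was 0.61, the highest of any member, against a of 2.55. This gene had a response to iSB09 of 1.53-fold beside a response to ABA of 5.85-fold, so it is a member because its ABA response was large. Its s/a of 0.241 was near the limit. When each of the 9 libraries was left out in turn, it met the rule in 5 of 9 cases.

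The 4 members with the highest CPM in ABA were Solyc01g079870.4, Solyc06g076020.3, Solyc04g054930.3 and Solyc08g077900.3. Solyc01g079870.4 had 67.5, 79.8 and 63.3 CPM in mock, 171, 159 and 144 CPM in ABA, and 88.3, 85.0 and 79.7 CPM in iSB09. The iSB09 libraries sat at or above the upper end of mock and below ABA, with fitted log2 fold changes of 1.20 ± 0.12 after ABA and 0.27 ± 0.12 after iSB09. Solyc04g054930.3 had 48.9, 35.2 and 38.6 CPM in mock, 93.8, 88.0 and 70.8 CPM in ABA, and 42.0, 47.2 and 49.4 CPM in iSB09. Mock and iSB09 overlapped, and the 95% interval of its iSB09 log2 fold change was -0.12 to 0.48. The lower bound of its ABA interval was 0.77, a distance that the rule favours and that supports nothing.

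Solyc06g076020.3 had 30.2, 44.8 and 45.5 CPM in mock, 112, 79.4 and 64.1 CPM in ABA, and 33.0, 39.2 and 30.7 CPM in iSB09. All iSB09 libraries were inside the mock range, and the fitted log2 fold changes were 1.11 ± 0.20 after ABA and -0.22 ± 0.21 after iSB09. Solyc08g077900.3 had 19.1, 19.6 and 13.9 CPM in mock, 107, 49.7 and 40.6 CPM in ABA, and 24.2, 21.6 and 20.5 CPM in iSB09. ABA replicate 1 was more than 2 times either other ABA library, with a fitted log2 fold change of 1.92 ± 0.30 after ABA, and without any 1 library this gene still met the rule.

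In 8 of 64 members s was below 0. Solyc03g113850.1 had the lowest, with 1.18, 1.05 and 0.95 CPM in mock, 3.33, 2.45 and 2.10 CPM in ABA, and 0.728, 0.274 and 0.683 CPM in iSB09. It was the only member whose iSB09 libraries all lay below its mock libraries, an arrangement found in 11.1% of the 19562 genes with at least 1 CPM in mock. Its fitted log2 fold change after iSB09 was -0.92 ± 0.33, with a 95% interval of -1.65 to -0.18, and it did not pass the threshold over all genes (edgeR quasi-likelihood, adjusted p = 0.16).

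The next 3 lowest values of s rested on mock replicate 3. Solyc06g034040.1 had 0.865, 0.320 and 3.08 CPM in mock, 3.28, 5.95 and 5.03 CPM in ABA, and 0.637, 1.00 and 0.911 CPM in iSB09. Solyc03g112440.1 had 0.911, 1.19 and 2.67 CPM in mock, 3.88, 4.31 and 3.75 CPM in ABA, and 1.46, 0.958 and 0.820 CPM in iSB09. In both, mock replicate 3 was the single high mock library, and without it s went from -0.68 to 0.46 and from -0.52 to 0.04. The mock mean of Solyc06g034040.1 was then 0.593 CPM, under the limit of the rule. Solyc09g098120.3 had 0.228, 0.183 and 5.57 CPM in mock, 5.61, 7.31 and 5.63 CPM in ABA, and 1.59, 0.730 and 2.73 CPM in iSB09. Without mock replicate 3 its a went from 1.59 to 4.36 and its s from -0.23 to 2.55, so in the remaining libraries it had a sizeable iSB09 response and a mock mean of 0.205 CPM, under the limit of the rule.

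**Figure D3:**
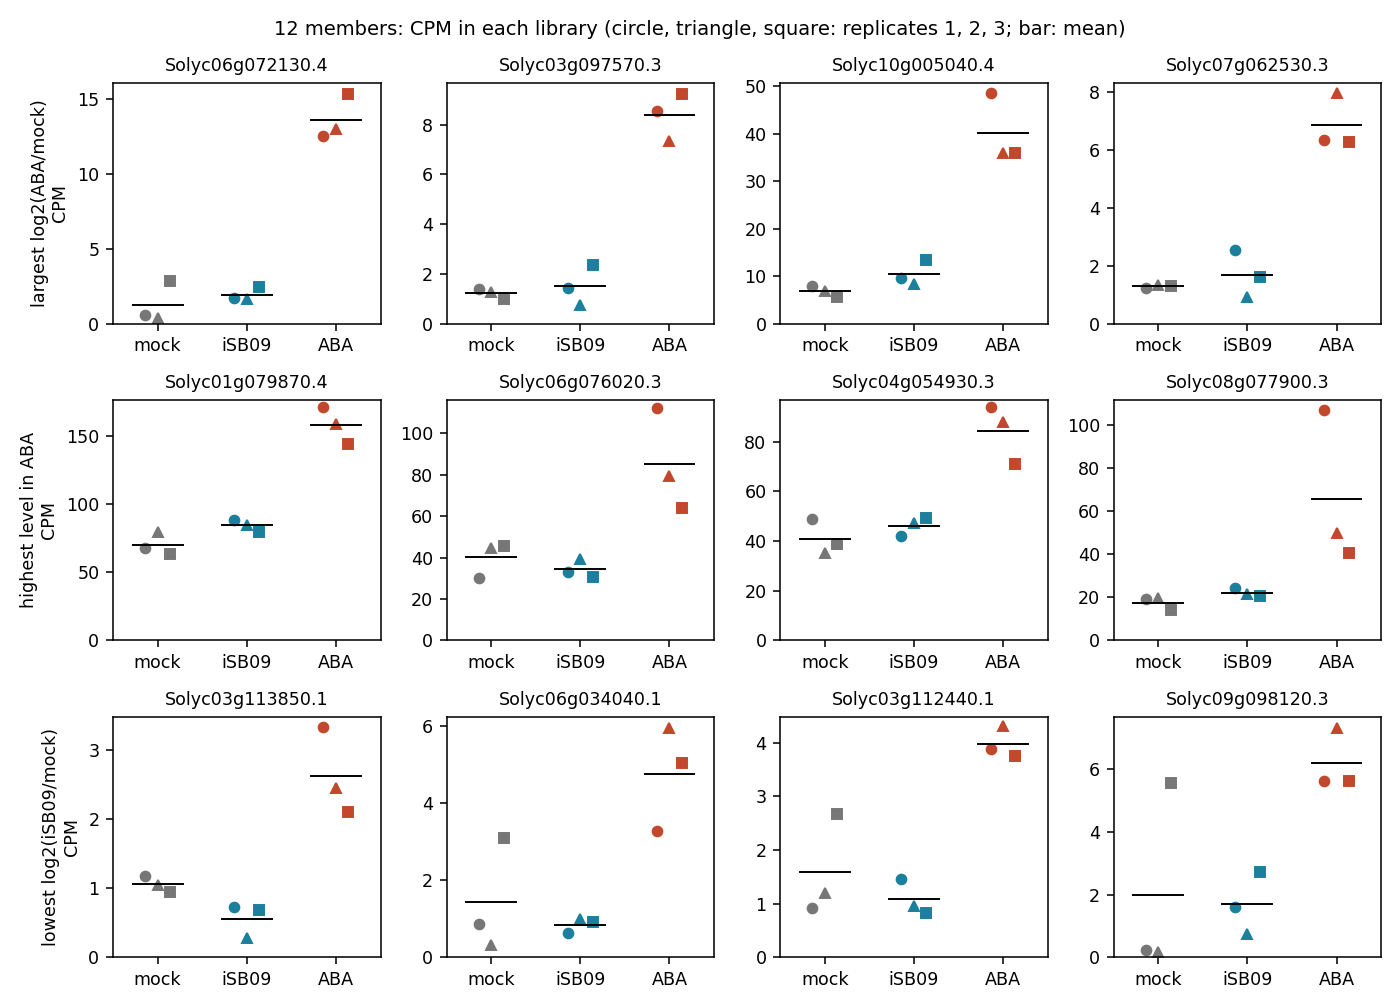
CPM of 12 members in each of the 9 libraries, with circles, triangles and squares for replicates 1, 2 and 3 and a bar at the mean of each group of 3. The upper row holds the largest log2 ratios of ABA to mock, the middle row the highest CPM in ABA and the lower row the lowest log2 ratios of iSB09 to mock. In Solyc06g072130.4, Solyc06g034040.1, Solyc03g112440.1 and Solyc09g098120.3 the square of mock replicate 3 stands above the other mock points.

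Mock replicate 3 was at least 2 times both other mock libraries in 5 of 64 members, 7.81%, and in 21 of 599 ABA-raised genes, 3.51%. The fifth member, Solyc12g096930.2, had s/a of 0.09 with that library and 0.33 without it. Mock replicates 1 and 2 were not high in this way in any member. Without mock replicate 3 the rule found 61 genes, of which 40 were among the 64.

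Over the members, iSB09 libraries mostly overlapped mock and lay below ABA. All 3 iSB09 libraries were within the range of mock in 9 members, 2 in 17, 1 in 18 and 0 in 20. These counts were not made for all genes. In 10 of 64 members every iSB09 library was above every mock library, beside 9.66% of all genes with at least 1 CPM in mock. In 1 member every iSB09 library was below every mock library, beside 11.1%. Mock and iSB09 overlapped in the other 53 members, but also in most of all such genes, so overlap does not set the members apart. Every ABA library was above every iSB09 library in 62 of 64, beside 9.43% of all such genes, but this follows largely from the choice. The exceptions were Solyc03g111730.3, with ABA at 24.1, 6.94 and 6.77 CPM and iSB09 replicate 3 at 8.38 CPM, and Solyc09g015020.1, with ABA at 6.29, 5.31 and 8.46 CPM and iSB09 replicate 1 at 7.41 CPM, both named after their values were seen.

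In the fit over all genes, all 64 members passed the low-count filter. Of these, 60 were called higher in ABA than in mock, beside 9.76% of the 21424 genes tested, and 55 were called lower in iSB09 than in ABA, beside 4.10%. The rule used these contrasts and that of iSB09 with mock, where it kept small values of s, so the counts here and below describe the choice and support nothing. For iSB09 against mock, edgeR called 0 members higher, beside 2.63% of genes tested, and 0 lower, beside 2.48%. At an unadjusted p under 0.05, 8 were higher and 1 was lower. DESeq2 called 2 higher, Solyc10g005040.4 and Solyc12g008660.1, and limma voom called 0. Without mock replicate 3, edgeR called Solyc06g072130.4 and Solyc09g098120.3 higher, and without mock replicate 1 it called Solyc12g008660.1.

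A missing call did not show that iSB09 had no effect. The 95% interval of the iSB09 log2 fold change included 0 in 55 members, but its median width was 0.97. Its upper bound was under 0.5 times the fitted ABA log2 fold change in 38 members and reached 1 or more in 12. A doubling by iSB09 thus lay within the error of those 12.

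The 4 members not called after ABA were Solyc09g098120.3, Solyc01g098950.3, Solyc01g081250.3 and Solyc09g015020.1, the last 3 named after their values were seen. Solyc01g081250.3 had ABA libraries at 2.69, 2.40 and 10.1 CPM against 2.32, 1.78 and 1.85 CPM in mock. Its increase came almost wholly from ABA replicate 3, and the other ABA libraries were just above mock.

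The 3 iSB09 libraries did not place the members alike. Against the mean of mock, the median s/a of single libraries was 0.22 in replicate 1, 0.04 in replicate 2 and 0.19 in replicate 3. The limit of 0.25 was passed by 23, 6 and 23 members in these libraries, and 18 of 64 stayed at or under it in all 3. The intermediate genes had no such difference: their median deviation from the iSB09 mean, on the log2 scale, was -0.01, 0.00 and 0.01, against 0.09, -0.12 and 0.07 for the members. Genes with s/a of 0.75 or more had the opposite pattern, at -0.08, 0.19 and -0.10. The classes were split on the mean of these same 3 libraries, so opposite deviations can follow from the choice and support nothing. Replicate 2 was also the iSB09 library with the highest summed photosynthesis level, 46200 CPM against 36800 and 36100, and the part of this in the result was not tested.

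Without iSB09 replicate 2 the rule found 54 genes, of which 38 were among the 64. After ABA the members' median a was 1.45, 1.29 and 1.20 in replicates 1 to 3.

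To read the response in libraries that had no part in the choice, the rule was applied to 2 libraries of each group and the third was measured. The genes chosen in this way were not all members: 39 of 74, 31 of 59 and 48 of 109 were among the 64, with replicate 1, 2 or 3 held out. With replicate 1 held out, 74 genes were chosen, with a median s of 0.17 in the libraries used and 0.69 in those held out. The ratio of the median s to the median a went from 0.13 to 0.41. With replicate 2 held out, 59 genes were chosen and the ratio went from 0.16 to 0.12, and with replicate 3 held out, 109 genes were chosen and it went from 0.17 to 0.26. Genes chosen as intermediate had 0.47 to 0.54 in held-out libraries, and those chosen with s/a of 0.75 or more had 0.62 to 0.93. The 3 classes had the same order in each held-out set, with the lower 2 closest for replicate 1, at 0.41 and 0.47. Held-out a and s were both measured against the same single mock library, so its level moves both. With replicate 1 held out, the median a of the chosen genes rose along with s, from 1.29 to 1.69.

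Each held-out reading has 1 library a group, so no test was made. In the held-out libraries s was at least 0.5 times a in 26 of 74, 10 of 59 and 25 of 109 chosen genes. Among genes chosen as intermediate it was so in 175 of 428, 250 of 504 and 304 of 527. Single genes of the 2 classes thus overlapped, and their shares were closest with replicate 1 held out.

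**Figure D4:**
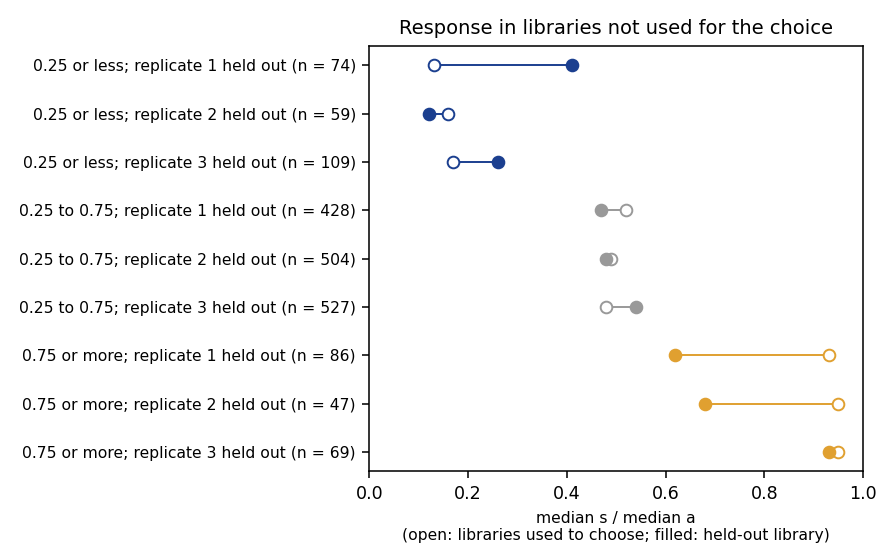
Ratio of the median s to the median a for genes chosen on 2 libraries of each treatment, in 3 classes of s/a, with open points for the libraries used in the choice and filled points for the held-out library. Filled points of the lowest class lie at 0.41, 0.12 and 0.26, left of the filled points of the intermediate class at 0.47, 0.48 and 0.54.

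Of the 64 members, 14 met the rule whichever of the 9 libraries was left out, a subset defined after the values were seen and given without a test. Their a ran from 1.11 to 2.69, their s from -0.81 to 0.39 and their s/a from -0.66 to 0.18. Besides Solyc03g097570.3, Solyc08g077900.3, Solyc03g112440.1 and Solyc03g113850.1, described above, they included genes with tight replicates. Solyc03g116530.3 had 16.5, 19.1 and 17.4 CPM in mock, 48.8, 36.8 and 38.1 CPM in ABA, and 19.6, 14.2 and 20.1 CPM in iSB09. Solyc02g088090.1 had 2.92, 2.74 and 2.67 CPM in mock, 7.62, 5.36 and 5.95 CPM in ABA, and 2.64, 2.97 and 3.24 CPM in iSB09. In both, iSB09 surrounded the mock values while ABA was separate from them.

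Solyc05g024160.3 was of the same kind, with 4.46, 5.71 and 4.89 CPM in mock, 15.2, 14.9 and 11.9 CPM in ABA, and 5.73, 4.75 and 5.88 CPM in iSB09. Solyc07g049460.3 had 14.4, 19.9 and 18.9 CPM in mock, 46.4, 40.4 and 41.7 CPM in ABA, and 19.9, 16.1 and 14.7 CPM in iSB09. Both had mock and iSB09 values that overlapped, with the ABA values at least 2 times the highest of either group. A further 19 members met the rule under 7 of the 9 omissions and 11 under 8. The fewest were 3 of 9, for Solyc06g063300.4 and Solyc07g065060.1.

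The known ABA pathway was set beside the members through 18 lists of IDs written down from general knowledge, whose membership was not checked against an annotation. Of 149 listed IDs 145 were in the table, 26 were ABA-raised by the rule and 2 were members. Among 8 IDs listed as clade A PP2C phosphatases, which hold ABA signalling in check, edgeR called 7 higher after ABA and 6 after iSB09. The rule found 5 raised, with s/a of 0.47 to 0.62. Among 7 IDs in the table listed as LEA, dehydrin and ASR proteins, which protect drying cells, it found 5, with 0.52 to 0.69. Over the lists of phosphatases, bZIP factors, ABA synthesis, CYP707A catabolism and LEA proteins, 14 IDs were raised. Their s/a was 0.47 to 0.69, with a median of 0.58, and 0 were members, beside 10.7% of all ABA-raised genes. That share was 4.88% where a was 2 to 3 and 1.22% where a was 3 or more. The 5 raised phosphatases had a of 2.3 to 5.75 and the 5 LEA IDs 1.3 to 6.48. An absence of members among 14 IDs therefore does not set these lists apart. None of 14 receptor IDs or 7 SnRK2 IDs was ABA-raised by the rule. Of 13 tested receptor IDs edgeR called 8 lower after ABA and 7 lower after iSB09. Of the 7 SnRK2 IDs it called 3 higher after ABA and 0 after iSB09.

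The remaining listed IDs that were raised were few. The 3 under heat shock, a class of chaperones and their regulators, had the lowest median ratio of any list with a raised ID, 0.27. The ratios were 0.09 for Solyc06g076570.4, a member, 0.27 for Solyc03g115230.3 and 0.33 for Solyc08g062960.4. Solyc06g076570.4 had 14.1, 16.1 and 11.2 CPM in mock, 34.9, 25.2 and 34.0 CPM in ABA, and 18.9, 14.1 and 11.6 CPM in iSB09. Mock and iSB09 overlapped, and the fitted log2 fold changes were 1.21 ± 0.20 after ABA and 0.11 ± 0.21 after iSB09. It was also among the 14 members that met the rule under every omission. Of 8 tested IDs on this list edgeR called 4 higher after ABA and 1 after iSB09, and a difference of this list from the others was not tested.

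Of the 3 raised IDs listed under proline and galactinol synthesis, which makes compatible solutes and the precursor of raffinose sugars, Solyc01g079170.3 was a member with s/a of 0.21 and the others had 0.50 and 0.57. It had 7.88, 13.6 and 10.4 CPM in mock, 37.5, 34.1 and 28.6 CPM in ABA, and 18.8, 8.76 and 12.9 CPM in iSB09. The standard deviation in iSB09, 5.04 CPM, was wider than the distance between its mean of 13.5 CPM and the mock mean of 10.6 CPM, with replicate 1 above mock and replicates 2 and 3 inside it. Raised IDs listed as NAC factors had 0.60 to 0.71, those of the circadian clock 0.48 and 0.60, and the ethylene ID 0.47. None of the IDs listed under photosynthesis, jasmonate, gibberellin, Aux/IAA, CBF or PIP aquaporins was ABA-raised by the rule. Among them edgeR called 3 jasmonate IDs and 4 aquaporin IDs lower after ABA, and 1 aquaporin ID higher. After iSB09 it called 1 aquaporin ID lower.

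**Figure D5:**
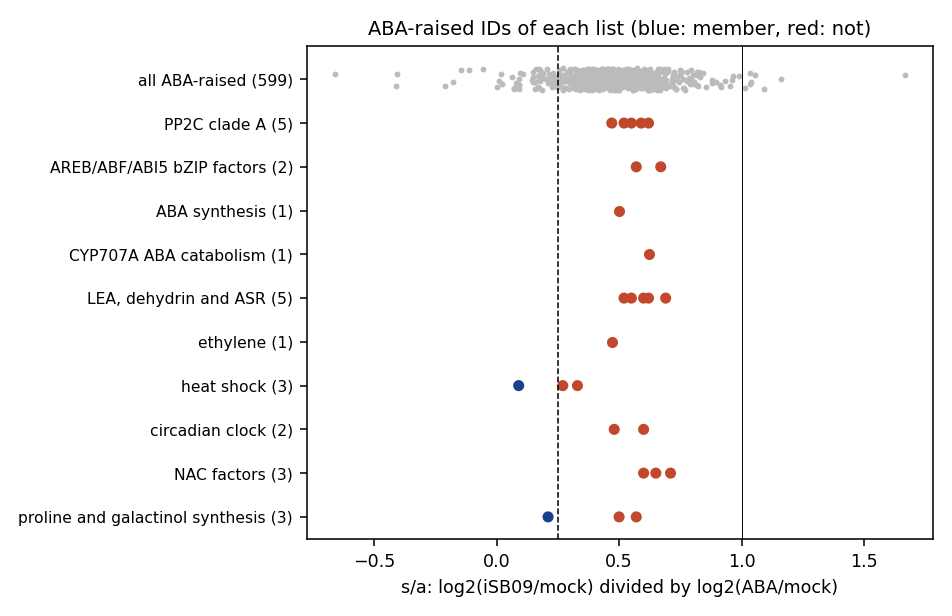
Horizontal axis, s/a for each ABA-raised ID; rows, all 599 genes in grey and the raised IDs of each list, with members in blue and others in red. The dashed line marks the limit of 0.25, left of which lie 1 heat shock ID and 1 ID of proline and galactinol synthesis, while the 14 raised IDs of the ABA pathway lists lie between 0.47 and 0.69.

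The IDs carry a chromosome number, which the rule did not use. Members carried 11 IDs of chromosome 1, 10 of chromosome 6 and 8 of chromosome 3, and 1 of chromosome 5. As shares, chromosome 6 gave 15.6% of members against 9.68% of ABA-raised and 8.75% of all genes with at least 1 CPM in mock, and chromosome 5 gave 1.56% against 6.51% and 6.75%. These are counts of few genes and were not tested. Members no more than 10 table IDs apart formed 5 pairs, and such pairs among other ABA-raised genes were not counted. The closest was Solyc07g049440.3 with Solyc07g049460.3, 2 IDs apart, and another joined the heat shock ID Solyc06g076570.4 with Solyc06g076490.3, 6 IDs apart. Reads of near-identical neighbouring copies may have been divided between their IDs.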

How the data were processed

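The authors deposited raw read counts per gene ID as 1 table. FastQC, cutadapt, STAR and DESeq2 are listed, without versions, per the submitters' processing notes. Genome build, annotation, counter and use of strand are not given in these sources, so overlapping or antisense genes cannot be separated. By name, 9 columns matched the mock, ABA and iSB09 samples; 3 further columns were not used, so the 3 iCB samples had no matched column.

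CPM used column totals, except in the principal components and the correlations between same-numbered libraries, which used TMM-scaled log2 CPM. The tests used edgeR 4.0.16 under R 4.3.3 (TMM, filterByExpr, glmQLFit and glmQLFTest, all 9 libraries, no replicate term; common biological coefficient of variation 0.14), with Benjamini-Hochberg adjustment over 21424 genes and a threshold of 0.05. SEs and intervals come from the F statistic. DESeq2 1.42.0 and limma 3.58.1 voom were alternatives. The fit was also run on counts simulated with the same spread for every gene, which does not cover members with a wider spread. Replicates of a group differed by more than sampling noise in every pair, with a chi-square statistic over genes of 7.465 to 28.48 for each degree of freedom. What was independent between replicates is not stated beyond the design text, so p-values measure the spread between these samples.

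The members, the lists and the alternatives were chosen with earlier results of these data known. Genes named were the 4 members with the largest a, the 4 with the highest mean CPM in ABA, the 4 with the lowest s, those nearest the limit and those on a list; others are stated as chosen after their values were seen.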

Additional observations from a re-analysis of the deposited data

How the results depend on the processing

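The number of members was 64 as reported. It stayed within 1.5 times of this with TMM-scaled sizes, a pseudocount of 1 or 0.01 CPM, overlap of ABA and mock libraries allowed, and fitted fold changes, at 51 to 77 genes. Of the 64, 45 were kept with a pseudocount of 1 CPM and 62 to 64 with the other settings just named. The number of members was 30 with at least 5 CPM in mock and 162 with no minimum. It was 22 and 315 with s/a limits of 0.1 and 0.5, and 7 with a of at least 2. The construction of each limit sets these numbers. Leaving out 1 library gave 54 to 91 genes, of which 38 to 62 were among the 64. Leaving out iSB09 replicate 2 and mock replicate 3 together, an alternative chosen after seeing the data, gave 53, of which 30 were among the 64.

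Members called higher after ABA numbered 56 to 60 with 1 library left out, and those lower in iSB09 than in ABA 43 to 56. Members called higher after iSB09 numbered 0 to 2 with 1 library left out and 2 with DESeq2, and 0 were called lower under any alternative (1 at an unadjusted p under 0.05). A replicate block left 61 members called after ABA, 0 after iSB09 and 55 lower in iSB09 than in ABA. The main fit did not take same-numbered libraries as pairs. Their deviations from group means correlated between -0.185 and 0.341, the highest for replicate 3 of mock and iSB09. These correlations cannot settle whether the samples were paired.

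The direction of iSB09 against mock, called in none of these fits except where stated, changed in 8 named genes with 1 library left out. The log2 fold change ran from -0.16 to 0.60 for Solyc03g097570.3, -0.03 to 0.65 for Solyc07g062530.3, -1.17 to 0.50 for Solyc06g034040.1, -0.82 to 0.01 for Solyc03g112440.1, -0.09 to 0.65 for Solyc01g094723.1, -0.05 to 0.58 for Solyc06g062460.3 and -0.08 to 0.28 for Solyc06g076570.4. For Solyc09g098120.3 it ran from -0.75 to 2.97 (called without mock replicate 3, edgeR adjusted p = 0.018), and was 1.16 with limma voom and 0.18 with a replicate block. The causes were not tested. No named gene changed direction for ABA against mock or iSB09 against ABA. Mock means under 2 CPM were found for 23 members, and the part of depth in their values was not tested. In 12 of all members the interval of the iSB09 response reached a doubling.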
